A study of Mus musculus with 6 samples.

Results

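The endoplasmic reticulum (ER) folds and quality-controls the proteins that enter the secretory pathway, and in muscle fibres it is continuous with the membrane system that stores calcium. The genes described here are 36 members of the ER folding machinery and of the unfolded protein response, out of 41025 genes listed. They were taken by symbol from a named list, with no cut on a measured value. The list itself was chosen with earlier results of these data known. It holds 16 chaperones and folding enzymes, 7 genes of ER-associated degradation, 5 stress sensors and transcription factors, and 8 ATF4 targets and phosphatase subunits. RNA came from the tibialis anterior, a mostly fast-fibred hindlimb muscle, of C57BL/6 mice aged 8 weeks. Of the 6 RNA-seq libraries, 3 were labelled Mettl21e knockout and 3 were labelled wild type, on the same strain and with no treatment named. The design text of the series names 3 biological replicates for each label. The labels do not say how the deletion was made or whether each library came from a mouse of its own. The spread behind each p-value is that between these 6 libraries, and how many mice stand behind it is not given. Mettl21e encodes a muscle protein methyltransferase, and the comparison asks which transcripts differ in its absence.

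When unfolded protein gathers in the ER, the sensors ATF6, IRE1 (encoded by Ern1) and PERK (encoded by Eif2ak3) are released from the chaperone BiP (encoded by Hspa5). ATF6 and the IRE1-spliced form of XBP1 raise chaperone and degradation genes through short promoter elements, the ER stress response elements. PERK phosphorylates eIF2alpha, which slows translation in general while ATF4 is still made, and ATF4 raises genes of amino acid supply and of cell death. ATF4 and XBP1 are controlled largely after transcription, by translation and by splicing, which gene-level transcript values do not show.

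The targeted gene did not follow the labels. Mettl21e was at 1.64, 1.45 and 1.88 FPKM (fragments scaled by transcript length and library total) in libraries labelled knockout, against 2.46, 0.309 and 1.23 FPKM in those labelled wild type. These values rest on few fragments: 38, 36 and 38 in libraries labelled knockout, against 63, 8 and 26 in those labelled wild type. The ranges overlapped, and the limma log2 difference was 0.29 (SE 0.31, adjusted p = 0.988). Since this gene was not lower in libraries labelled knockout, directions below are between labels only, and knockout library or wild-type library names a label. The labels do not say which part of the gene was deleted. Fast-fibre markers were abundant in all 6 libraries, with Tnnt3, fast skeletal troponin T, averaging 18700 ± 1430 FPKM in those labelled knockout and 17700 ± 1200 FPKM in those labelled wild type (SD, n = 3 each). Libraries held 8476591 to 10435095 fragments in those labelled knockout and 8842349 to 10856669 in those labelled wild type, and 1 fragment on 1 kb was worth 0.0921 to 0.118 FPKM. Mitochondrial genes held 15.2% to 19.8% of fragments in libraries labelled knockout and 15.5% to 17.3% in those labelled wild type.

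The promoters of several members carry letters of the elements through which the transcription factors of the response are known to act, and these stretches are shown for that reason. Windows of 300 bases, 250 before and 50 after the start, were taken from RefSeq (GRCm38.p6) and matched for 31 of the 36 members. Searched on both strands, the ER stress response element (ERSE: CCAAT, any 9 bases, CCACG) was found in Calr, Canx, Creld2, Dnajc3, Hsp90b1, Hspa5, Pdia6 and Syvn1, against 37 of all 27025 genes with a window (0.137%). ERSE-II (ATTGG, any base, CCACG) was found in Herpud1 and Dnajb11, against 12 genes in all (0.0444%). The XBP1-type core TGACGTG was found in Hspa5 and in 2.22% of genes, and the ATF4-type CARE word (TGATG, then CAA) in Chac1 and Herpud1 and in 1.03% of genes. The first of these cores can overlap other cyclic-AMP-type elements, and a match is a description of letters, not of binding. The sequences below read 5′ to 3′ on the gene's own strand, with each match, in either orientation, in capitals.
Hspa5 (chr2:34771921-34772055, plus strand), the core and then the ERSE: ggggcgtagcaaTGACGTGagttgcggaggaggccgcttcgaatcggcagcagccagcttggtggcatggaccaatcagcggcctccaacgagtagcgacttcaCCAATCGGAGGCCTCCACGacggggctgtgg
Hsp90b1 (chr10:86705521-86705668, minus strand), an ERSE in each orientation: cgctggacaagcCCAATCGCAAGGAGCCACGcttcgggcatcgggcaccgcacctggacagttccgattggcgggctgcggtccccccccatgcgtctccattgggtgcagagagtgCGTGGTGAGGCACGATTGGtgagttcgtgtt
Calr (chr8:84847063-84847105, minus strand), ERSE: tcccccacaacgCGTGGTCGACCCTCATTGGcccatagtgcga
Canx (chr11:50325788-50325830, minus strand), ERSE: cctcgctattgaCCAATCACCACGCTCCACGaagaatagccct
Pdia6 (chr12:17266479-17266521, plus strand), ERSE: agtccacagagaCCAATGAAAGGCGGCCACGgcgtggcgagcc
Dnajc3 (chr14:118937815-118937857, plus strand), ERSE: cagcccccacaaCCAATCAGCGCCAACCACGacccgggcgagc
Creld2 (chr15:88819508-88819550, plus strand), ERSE: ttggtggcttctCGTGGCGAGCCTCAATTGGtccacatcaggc
Syvn1 (chr19:6046520-6046562, plus strand), ERSE: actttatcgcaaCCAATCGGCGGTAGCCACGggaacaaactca
Herpud1 (chr8:94386305-94386399, plus strand), the CARE word and then ERSE-II: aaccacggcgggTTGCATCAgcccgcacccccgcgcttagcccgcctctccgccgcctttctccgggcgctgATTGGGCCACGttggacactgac
Chac1 (chr2:119351037-119351068, plus strand), the CARE word: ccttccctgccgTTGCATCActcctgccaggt

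**Figure D1:**
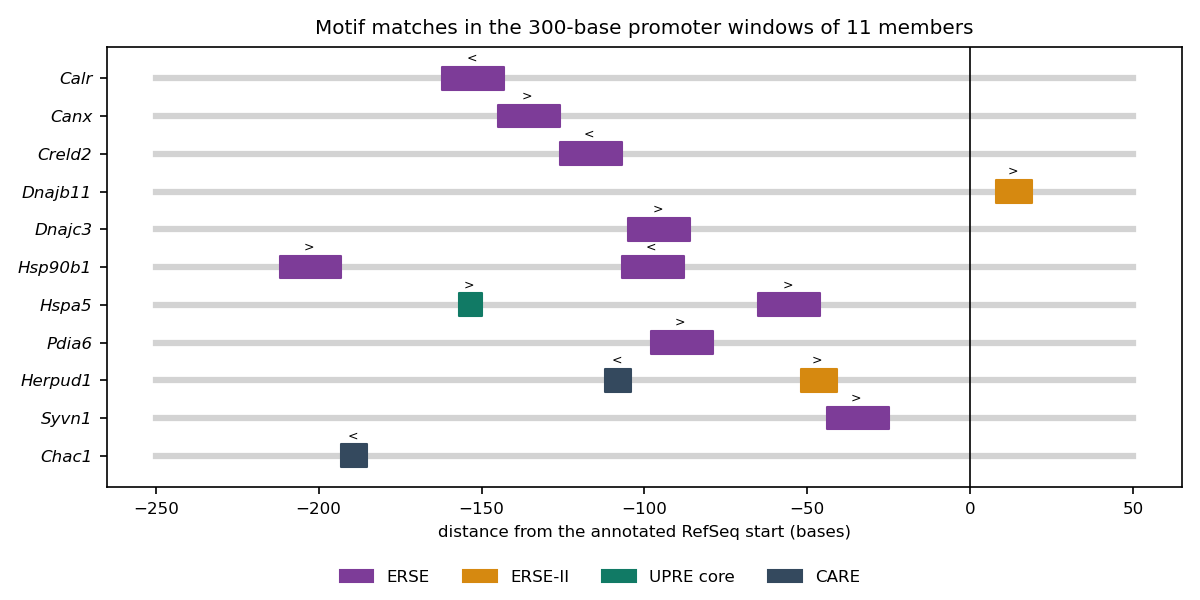
Motif matches in the 300-base RefSeq promoter windows of 11 members, by distance in bases from the annotated start (vertical line). Coloured boxes are matches and the marks above them give their orientation. Matches of the ERSE lay between 212 and 26 bases before the start, and the ERSE-II match of Dnajb11 lay 8 to 18 bases after it.

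All 36 members were transcribed in every library, at means of 1.11 FPKM (Sesn2) to 122 FPKM (Hspa5) over the 6, and all passed the filter of a mean of at least 1 FPKM. Between 7 and 1980 fragments stood behind a value. The 5 highest were Hspa5 (122), Herpud1 (114), Calr (101), P4hb (92.8) and Atf4 (78.4 FPKM). This order depends on the gene length behind FPKM, which equalled the mean annotated transcript length for 21 of 36 members. Set against the merged exons of each gene instead, the first were Herpud1 (57.4), Calr (41.2), Hspa5 (40.9), Atf5 (35.0) and Atf4 (28.7 FPKM). The order of Hspa5, Herpud1 and Calr is therefore not settled, while Atf4 held the same rank on both scales. The ratio of one gene's FPKM between libraries does not depend on that length. The filter and the log2 differences below, which are taken on FPKM + 1, do depend on it, most for low genes.

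**Figure D2:**
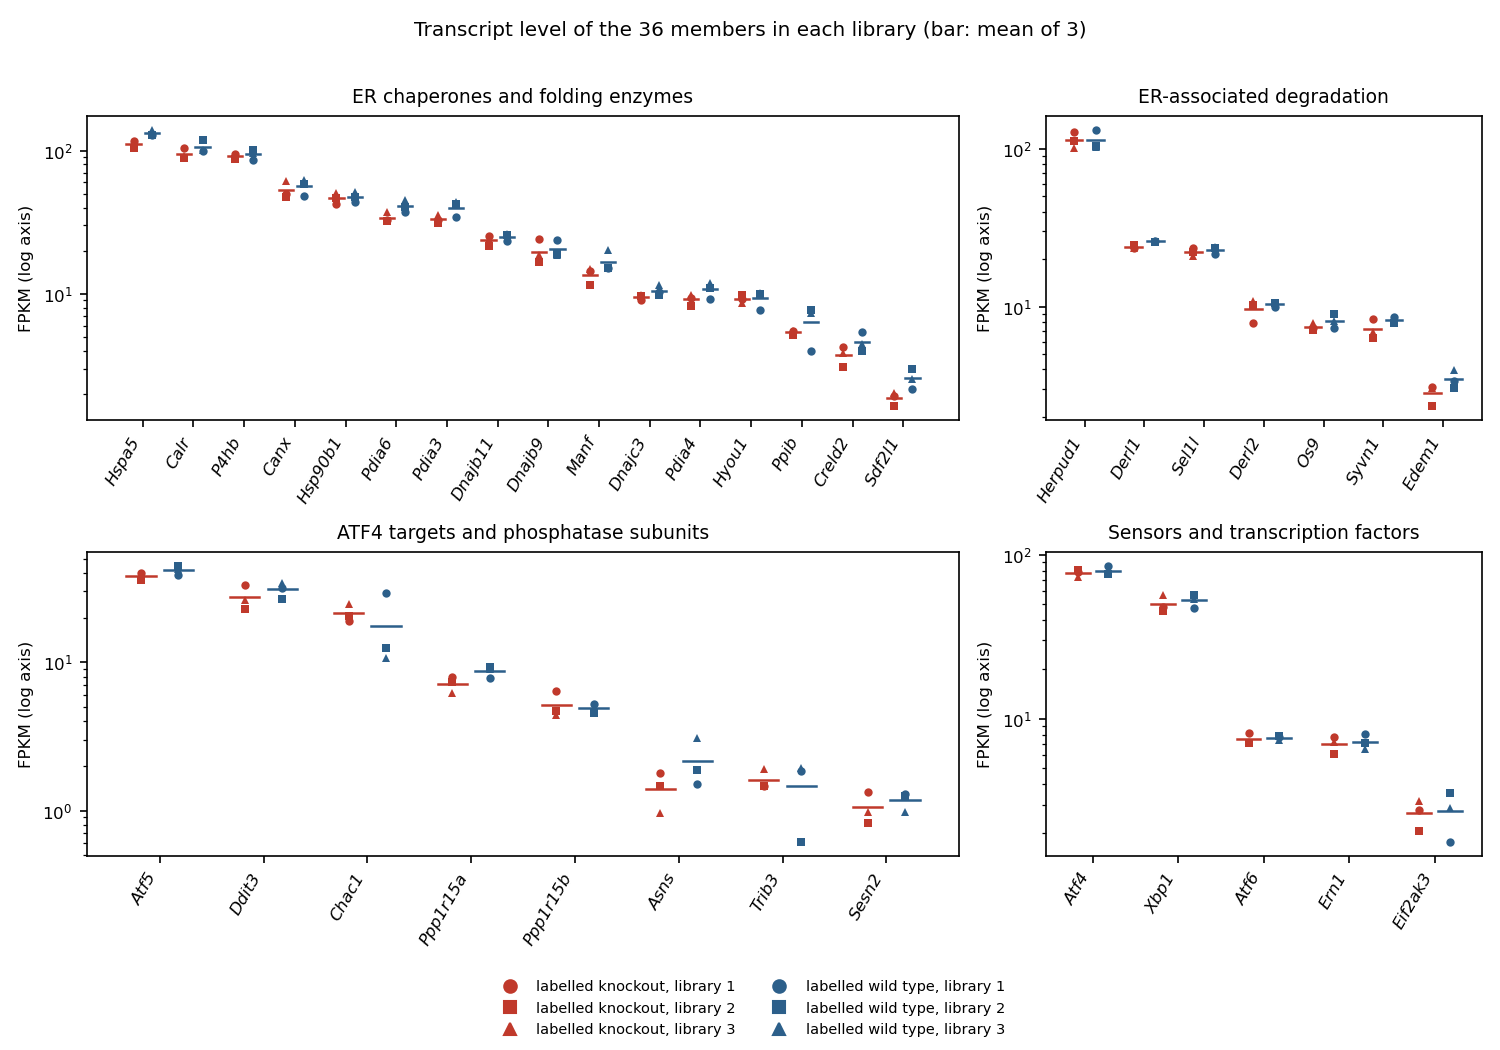
FPKM (log axis) of each member in each library, with a bar at the mean of 3; red marks are libraries labelled knockout and blue marks those labelled wild type, and shapes give the library number. Levels span from 1.11 FPKM for Sesn2 to 122 FPKM for Hspa5, and the pairs overlap in all members except Hspa5, Sdf2l1, Manf and Derl1.

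No member passed the test between the labels. Of the 11383 genes tested, 0 (0.0%) had a limma adjusted p under 0.05, and voom on the recovered fragments also called 0. Leaving out knockout library 3, wild-type library 1 or wild-type library 3 gave 1, 1 and 3 called genes, none a member. The lowest adjusted p of any gene was 0.29, and those of members lay between 0.988 and 1.0. In 32 of the 36 members the log2 difference was below 0, that is, lower in libraries labelled knockout, against 56.7% of all genes. Their median was -0.11, against -0.02 over all genes. With each library's median subtracted, 26 of 36 lay below 0, against 43.2% of all genes. Unadjusted p-values under 0.05 were reached by 3 members on the lower side, against 3.31% of all genes, and by 0 on the higher side, against 1.28%. That count of 3 was 9 without wild-type library 1, 1 without wild-type library 2, and 0 without knockout library 2 or wild-type library 3. All libraries labelled knockout lay below all labelled wild type in 4 members, against 5.64% of genes, and above them in 0 members, against 3.84%. With 3 against 3 libraries no exact permutation p can be below 0.1. On the scale of FPKM + 1, the 95% intervals (limma, not adjusted) stayed within 1.5-fold in either direction for 29 members. That scale understates changes of low genes, so for low members such as Sesn2 the bound need not hold for FPKM itself. The other 7, Ppib, Sdf2l1, Manf, Creld2, Trib3, Asns and Chac1, had wider intervals, so a 1.5-fold difference was not bounded out for them.

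**Figure D3:**
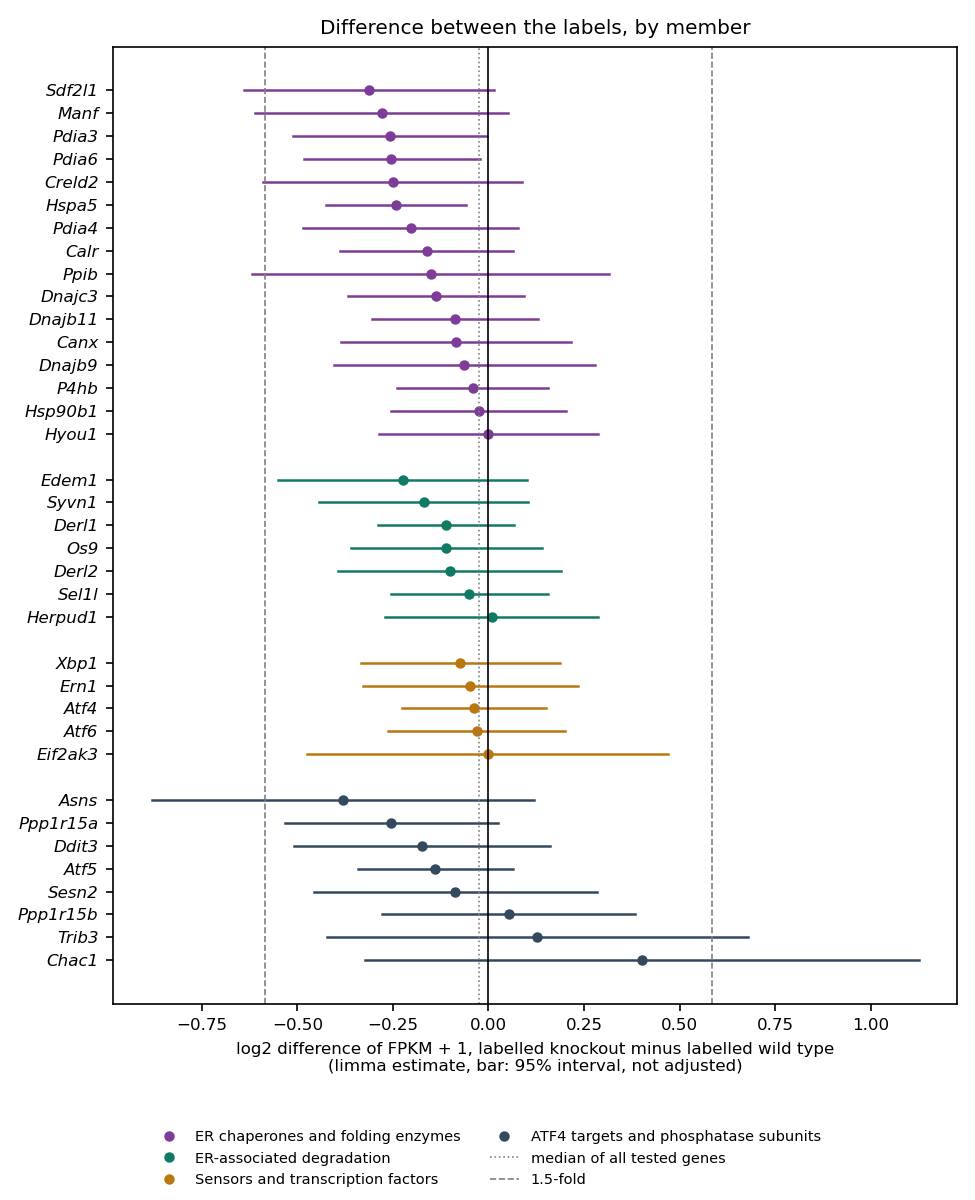
Log2 difference of FPKM + 1, labelled knockout minus labelled wild type, for each member, with its unadjusted 95% limma interval; the dotted line is the median of all tested genes and the dashed lines mark 1.5-fold. Points run from -0.38 for Asns to 0.40 for Chac1, and 32 of 36 lie below 0 (26 with library medians subtracted).

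The 16 chaperones and folding enzymes all had a log2 difference below 0 (median -0.16, against -0.02 over all genes), of which 13 stayed below with library medians subtracted, and 0 passed the test. Hspa5 (ENSMUSG00000026864; mm10 chromosome 2, 34771970 to 34777547, plus strand, 7 merged exons) encodes the ER HSP70 that also holds the sensors inactive. It was at 116.5, 103.8 and 114.4 FPKM in libraries labelled knockout, against 128.2, 128.6 and 139.5 FPKM in those labelled wild type. The groups did not overlap, and the gap between them (116.5 to 128.2) was about as wide as the range within each. Its ratio of means was 0.845. Its log2 difference was -0.24 (SE 0.08), with an exact two-sided permutation p of 0.1, the smallest possible, an unadjusted limma p of 0.0154 and an adjusted p of 0.988. Leaving out any 1 library kept the difference between -0.27 and -0.19.

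The disulfide isomerases, which form and reshuffle disulfide bonds in new proteins, stood next. Pdia3, the isomerase that works with calnexin and calreticulin on glycoproteins, was at 32.7, 31.1 and 35.6 FPKM in libraries labelled knockout, against 34.2, 42.1 and 43.5 FPKM in those labelled wild type. Wild-type library 1 lay inside the knockout range and the other two above it. Its log2 difference was -0.26 (SE 0.11), with an exact permutation p of 0.2, an unadjusted limma p of 0.047 and an adjusted p of 0.988. Pdia6, a thioredoxin-like isomerase that binds BiP, was at 32.7, 32.5 and 37.1 FPKM in libraries labelled knockout, against 37.0, 40.5 and 45.1 FPKM in those labelled wild type. The groups touched, with knockout library 3 and wild-type library 1 almost equal. Its log2 difference was -0.25 (SE 0.10), with an exact permutation p of 0.2, an unadjusted limma p of 0.0347 and an adjusted p of 0.988. Exons of both genes overlap a gene on the other strand (Catsper2 for Pdia3, Atp6v1c2 for Pdia6). Strand-specific counting is nowhere stated in the labels, so their values are uncertain to that extent. Pdia4 had a log2 difference of -0.20 and overlapping groups. P4hb, the isomerase that is also a subunit of collagen prolyl 4-hydroxylase, was at 94.0, 86.9 and 93.3 FPKM in libraries labelled knockout, against 85.8, 101.3 and 95.6 FPKM in those labelled wild type. The lowest P4hb value of all was in a library labelled wild type, and the log2 difference was -0.04 (SE 0.09).

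The lectin chaperones Calr and Canx hold newly glycosylated proteins until they are folded, and Calr also buffers ER calcium. Calr was at 104.0, 89.2 and 91.8 FPKM in libraries labelled knockout, against 99.4, 118.7 and 101.3 FPKM in those labelled wild type. The groups overlapped, with wild-type library 2 standing above the rest, and the limma log2 difference was -0.16 (SE 0.10, adjusted p = 0.988). Canx and Hsp90b1, the ER HSP90, overlapped almost fully (log2 differences -0.08 and -0.03).

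Of the smaller factors, a pair had groups that did not overlap. Sdf2l1, a partner of the ER J-proteins, was at 1.95, 1.64 and 2.02 FPKM in libraries labelled knockout, against 2.18, 2.99 and 2.55 FPKM in those labelled wild type. These values rest on 19 to 21 fragments per library labelled knockout and 25 to 36 per library labelled wild type, whose 95% exact Poisson intervals (counting error only) overlap. The limma log2 difference was -0.31 (SE 0.14, adjusted p = 0.988). Manf, a secreted ER-stress-induced factor, was at 14.5, 11.5 and 14.9 FPKM in libraries labelled knockout, against 15.1, 15.2 and 20.1 FPKM in those labelled wild type. The nearest values of the labels were 14.9 and 15.1 FPKM, the limma log2 difference was -0.28 (SE 0.15, adjusted p = 0.988), and Manf shares 6.17% of its 50-base words with other genes and overlaps genes on the other strand. Creld2, an ER-stress-induced isomerase-like protein, had a log2 difference of -0.25 (SE 0.15) with overlapping groups. The J-proteins Dnajb9, Dnajb11 and Dnajc3, which hand clients to BiP, lay between -0.14 and -0.06, and Hyou1, the large ER HSP70 that exchanges BiP's nucleotide, lay at 0.00 (SE 0.12). Ppib, a prolyl isomerase of collagen folding, was at 5.47, 5.19 and 5.53 FPKM in libraries labelled knockout, against 3.97, 7.68 and 7.30 FPKM in those labelled wild type, which lay on both sides. It shares 30.8% of its words with other genes, which makes its own level uncertain.

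The wild-type libraries were not alike in this group. Summed over the 16 chaperones, FPKM was 575.1, 524.8 and 581.8 in libraries labelled knockout, against 577.3, 642.1 and 652.2 in those labelled wild type. Wild-type library 1 was thus within the range of those labelled knockout, and only libraries 2 and 3 stood above it. In 10 of the 16 chaperones, and in 14 of all 36 members, these 2 libraries were the highest of the 6, against 17.2% of all genes. The same held in 3 of the 8 ATF4 targets and phosphatase subunits (Atf5, Asns and Ppp1r15a). Markers of some other cell types shared that order: 17 of 17 fibroblast and matrix markers showed it, as did 8 of the 8 macrophage markers tested. So did 5 of 6 adipocyte, 4 of 5 tendon and 5 of 9 endothelial markers tested. Fewer showed it among B and plasma cell (2 of 4), neutrophil (1 of 4), Schwann (1 of 5), slow-fibre (1 of 8) and fast-fibre (0 of 8) markers. Summed fibroblast markers ranged from 318.9 to 413.9 FPKM in libraries labelled knockout and from 287.1 (library 1) to 621.2 FPKM in those labelled wild type, with no marker at 0 in any library. Macrophage markers summed to 29.31 to 35.48 FPKM in libraries labelled knockout and 27.39 to 70.59 FPKM in those labelled wild type, again with library 1 lowest and no marker at 0. Both sets were therefore low in wild-type library 1 and high in the other two wild-type libraries. Adipocyte markers summed to 87.07 to 102.1 FPKM and 100.4 to 145.9 FPKM, tendon markers to 39.81 to 59.92 FPKM and 42.18 to 109.6 FPKM, and B and plasma cell markers to 7.145 to 18.16 FPKM and 17.24 to 37.3 FPKM, in each case labelled knockout before labelled wild type. These 3 sets overlapped between labels, with their highest sums in wild-type libraries 2 or 3. Slow-fibre markers summed to 289.3 to 452.9 FPKM in libraries labelled knockout and 428.4 to 710.1 FPKM in those labelled wild type, with 8 of 8 below 0 (median log2 difference -1.11). An unadjusted limma p under 0.05 was reached by 5, against 3.31% of all genes, and 0 passed the test. All libraries labelled knockout lay below all labelled wild type in 4, against 5.64%. Also below 0 were 17 of 17 fibroblast, 6 of 6 adipocyte, 5 of 5 tendon and 4 of 4 neutrophil markers tested. So were 7 of 8 macrophage, 8 of 9 endothelial and 3 of 4 B and plasma cell markers. Schwann (3 of 5) and fast-fibre markers (3 of 8) were split. Neutrophil markers summed to 186.0 FPKM in wild-type library 3 and to no more than 15.34 FPKM in libraries labelled knockout and 8.992 FPKM in the other two labelled wild type. Tnfrsf17, a defining plasma cell marker, was at 0 in all 6 libraries, and 5 of the 11 B and plasma cell markers were at 0 in at least 1. Secretory cells carry much of this machinery, and in bulk muscle fewer such cells and less RNA per cell cannot be told apart. The part of these cells in the chaperone differences was not tested. Without wild-type library 1 the chaperone median was -0.20, and without library 3 it was -0.13.

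**Figure D4:**
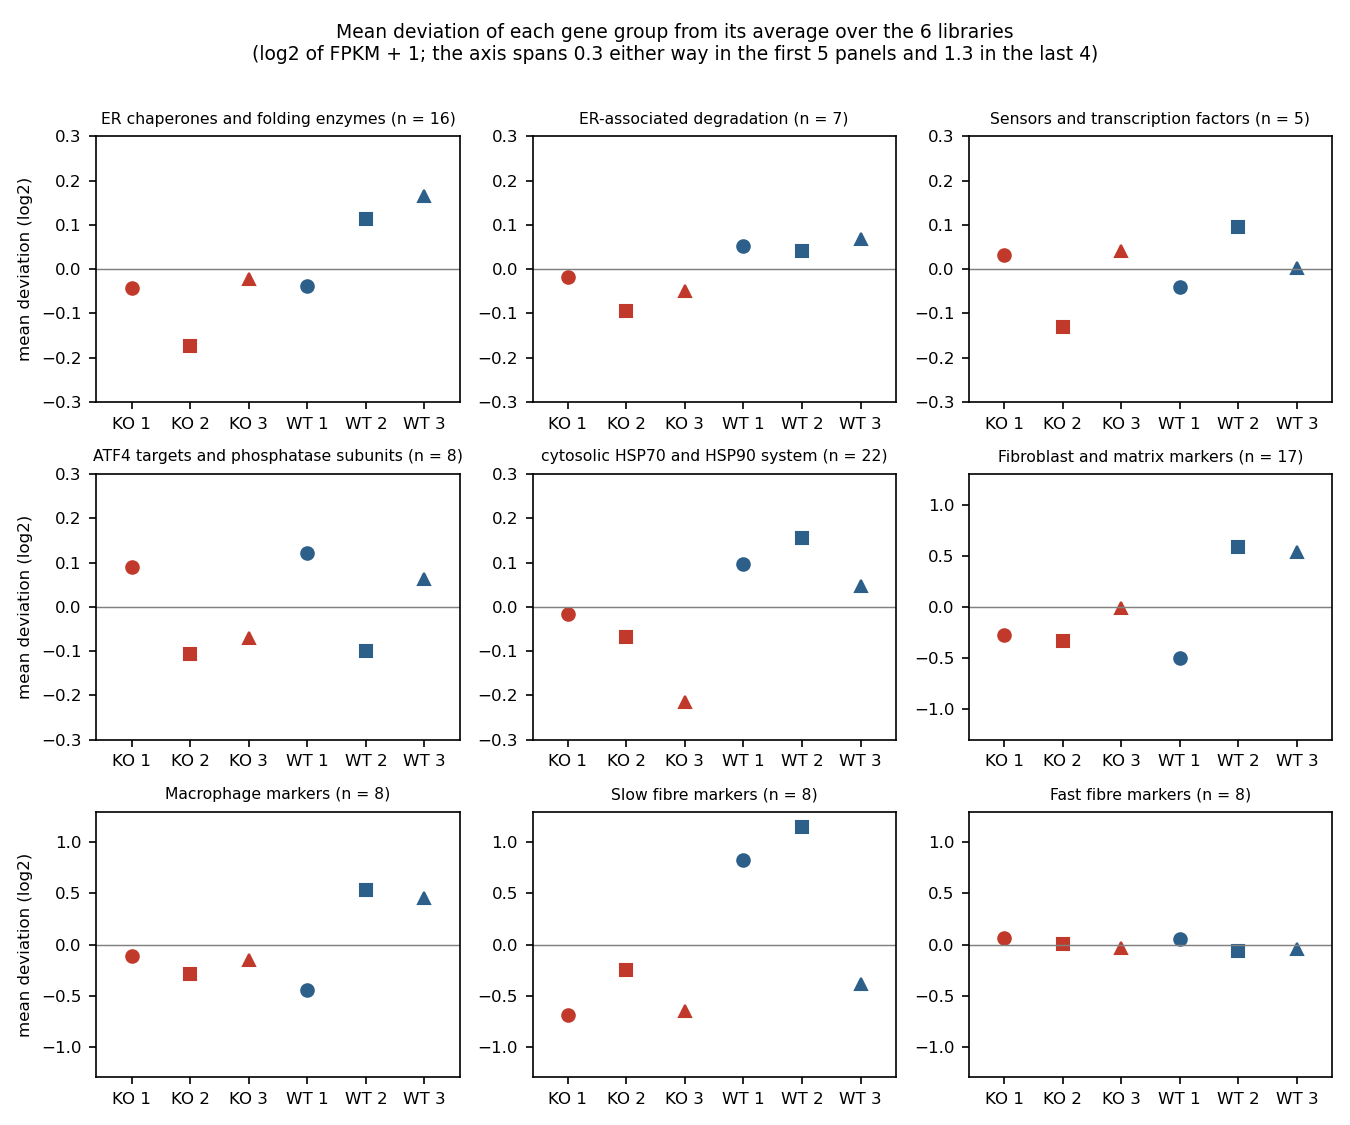
Mean deviation, in log2 of FPKM + 1, of each gene group from its average over the 6 libraries, with libraries labelled knockout (KO, red) left of those labelled wild type (WT, blue); the first 5 panels span 0.3 either way and the last 4 span 1.3. For the chaperones and for the fibroblast and macrophage markers, wild-type libraries 2 and 3 stand above the other 4. The group means of the sensors and of the ATF4 targets with phosphatase subunits do not show this order. It does hold for 3 of these 8 targets and subunits taken singly.

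Genes of ER-associated degradation, which draw misfolded proteins back to the proteasome, showed no such order: only Os9 of the 7 had wild-type libraries 2 and 3 highest. Their log2 differences lay below 0 in 6 of 7, with a median of -0.11, and 0 passed the test. All 7 intervals stayed within 1.5-fold on the scale of FPKM + 1, which need not hold for FPKM itself in low genes such as Edem1. Herpud1, a membrane scaffold of the complex and the most abundant of these genes, was at 127.6, 112.3 and 101.8 FPKM in libraries labelled knockout, against 132.2, 105.0 and 103.3 FPKM in those labelled wild type. Library 1 of each label was the highest, and the means were the same to within 1 FPKM (log2 difference 0.01, SE 0.12). Derl1, a channel-forming derlin, was at 23.5, 24.8 and 23.6 FPKM in libraries labelled knockout, against 25.9, 25.9 and 26.0 FPKM in those labelled wild type. The groups did not overlap, but the labels differed by only -0.11 in log2 (SE 0.08, limma adjusted p = 0.988). Sel1l, the scaffold of the HRD1 ligase, was at 23.5, 22.1 and 20.8 FPKM in libraries labelled knockout, against 21.6, 23.4 and 23.9 FPKM in those labelled wild type. Its groups overlapped and its log2 difference was -0.05 (SE 0.09). The ligase itself, Syvn1 (-0.17, SE 0.12), the mannosidase-like Edem1 (-0.22, SE 0.14), the lectin Os9 (-0.11, SE 0.11) and Derl2 (-0.10, SE 0.13) also had overlapping groups.

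The sensors and transcription factors had the median nearest to 0 of the 4 groups. All 5 log2 differences were between -0.07 and 0, the median of -0.04 lay near that of all genes, and with library medians subtracted only 2 of 5 were below 0. Xbp1 was at 48.0, 45.1 and 57.1 FPKM in libraries labelled knockout, against 47.0, 57.1 and 53.9 FPKM in those labelled wild type. The highest value of each label was the same to 3 digits, and the log2 difference was -0.07 (SE 0.11). Atf4 was at 78.0, 80.7 and 73.2 FPKM in libraries labelled knockout, against 85.6, 76.1 and 76.8 FPKM in those labelled wild type. The ranges crossed, and the log2 difference was -0.04 (SE 0.08).

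The membrane sensors themselves were low in level. Atf6 was at 8.17, 7.11 and 7.21 FPKM in libraries labelled knockout, against 7.73, 7.80 and 7.47 FPKM in those labelled wild type, and all 3 wild-type values lay inside the knockout range. Ern1 was at 7.70, 6.11 and 7.17 FPKM in libraries labelled knockout, against 8.05, 7.13 and 6.58 FPKM in those labelled wild type, with ranges that overlapped. Log2 differences were -0.03 (SE 0.10) for Atf6 and -0.05 (SE 0.12) for Ern1. Eif2ak3 was at 2.77, 2.07 and 3.17 FPKM in libraries labelled knockout, against 1.77, 3.55 and 2.86 FPKM in those labelled wild type. Its lowest and highest values were both in libraries labelled wild type, and the log2 difference was 0.00 (SE 0.21). All 5 intervals of this group stayed within 1.5-fold on the scale of FPKM + 1, which need not hold for FPKM itself in low genes such as Eif2ak3.

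The ATF4 targets and phosphatase subunits, counted together, went both ways. Of 8, 5 had a log2 difference below 0 and 3 above it (median -0.11), and 0 passed the test. That median was -0.18 without knockout library 1 and -0.03 without knockout library 2. Atf5, a transcription factor of the same stress response, was at 39.8, 35.8 and 38.4 FPKM in libraries labelled knockout, against 38.6, 44.7 and 42.6 FPKM in those labelled wild type. Only wild-type library 1 lay inside the knockout range, and the log2 difference was -0.14 (SE 0.09). Ddit3, which encodes CHOP, the factor of stress-induced cell death, was at 33.3, 23.02 and 26.3 FPKM in libraries labelled knockout, against 31.6, 26.9 and 34.5 FPKM in those labelled wild type. The groups overlapped widely, with a log2 difference of -0.17 (SE 0.15, limma adjusted p = 0.988). It was -0.31 without knockout library 1, -0.06 without knockout library 2, -0.27 without wild-type library 2 and -0.09 without wild-type library 3. Exons of Atf5 and Ddit3 overlap genes on the other strand (Il4i1 and Nup62, and Gm4189 and Mars).

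Chac1, which breaks down glutathione and is an ATF4 target, had the highest coefficient of variation of any member within a label, 58.8% among those labelled wild type. The gene (ENSMUSG00000027313; mm10 chromosome 2, 119351229 to 119354381, plus strand, 3 exons) was at 19.0, 20.4 and 24.8 FPKM in libraries labelled knockout, against 29.4, 12.6 and 10.6 FPKM in those labelled wild type. Wild-type library 1 was the highest of the 6 and wild-type libraries 2 and 3 the lowest. Between 154 and 517 fragments stood behind each value. The exact 95% Poisson interval of wild-type library 1 (26.9 to 32.0 FPKM) did not touch those of wild-type libraries 2 (11 to 14.3) and 3 (9.03 to 12.5), so counting error alone does not cover that spread. The limma log2 difference was 0.40 (SE 0.32, adjusted p = 0.988). Without wild-type library 1 it was 0.83 (adjusted p = 0.0894), the lowest adjusted p of any member under any alternative, while without wild-type library 2 it was 0.24 and without library 3 it was 0.13. The 2 libraries with the lowest Chac1 were those with the highest values of 10 chaperones. They were also the highest in 3 of the 8 members of the Chac1 group, and in 17.2% of all genes. A link was not tested.

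The phosphatase subunits, which end the eIF2alpha signal, split in sign. Ppp1r15a, the stress-induced subunit GADD34, had a log2 difference of -0.26 (SE 0.12, limma adjusted p = 0.988) with wild-type libraries 2 and 3 highest. The constitutive subunit Ppp1r15b lay at 0.05 (SE 0.15). Asns, which makes asparagine, lay at -0.38 (SE 0.22), on 8 to 27 fragments a library, and at -0.18 without wild-type library 3 and -0.24 without knockout library 3. Trib3, a pseudokinase that feeds back on ATF4, lay at 0.13 (SE 0.24), on 7 to 21 fragments. The intervals of both reached past 1.5-fold, so a difference of that size was not bounded out. Sesn2, a stress-induced regulator of growth signalling, lay at -0.09 (SE 0.16).

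**Figure D5:**
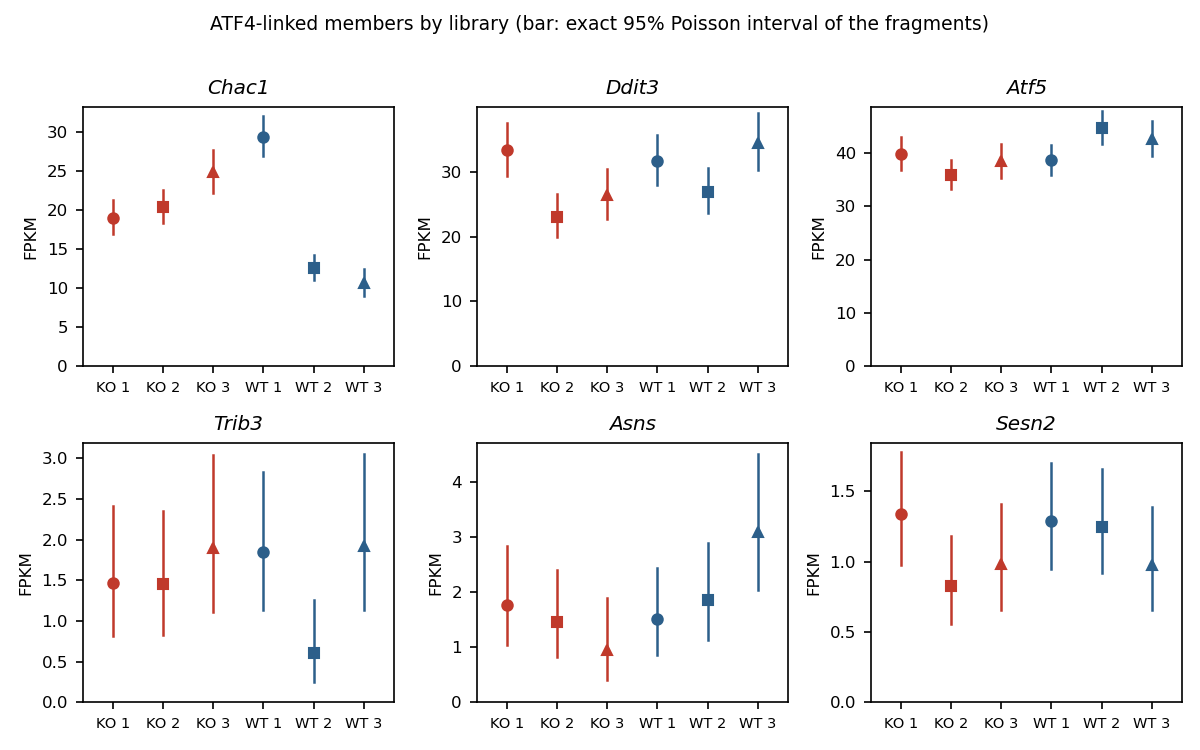
FPKM of 6 ATF4-linked members in each library, labelled knockout (KO, red) left of labelled wild type (WT, blue), with exact 95% Poisson intervals of the fragments, which cover counting error only. Chac1 is highest in wild-type library 1 (29.4 FPKM) and lowest in wild-type libraries 2 and 3 (12.6 and 10.6 FPKM).

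Members with and without a promoter element were counted apart, with no test between them. The 10 members with an ERSE or ERSE-II match, shown above except Dnajb11, had a median log2 difference of -0.15, with 9 below 0 and 1 above (8 below with library medians subtracted). The 21 members with a window and no such match had a median of -0.10, with 19 below 0 and 2 above (16 below with medians subtracted). These sets also differ in role. Of the matched members only Herpud1 and Syvn1 are not chaperones or folding enzymes, a group whose own median was -0.16. Chaperones with a window and no such match were Sdf2l1 (-0.31), Pdia3 (-0.26), Pdia4 (-0.20), Ppib (-0.15), Dnajb9 (-0.06) and P4hb (-0.04). The Hspa5 promoter, with both the core and the ERSE, belongs to a member whose groups stood apart, but Hsp90b1, with 2 ERSE matches, had a log2 difference of -0.03 (SE 0.10). Both CARE-bearing members, Chac1 and Herpud1, lay above 0, Herpud1 by no more than 0.01, and neither passed the test. Across the alternatives Herpud1 ran from -0.08 to 0.12. Trib3, with a window and no CARE match, also lay above 0 (0.13).

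The wider machinery was read from lists of 101 further genes, of which 93 were tested. Of these, 58 lay below 0 and 35 above (median -0.04, against -0.02 over all genes), only 42 lay below 0 with library medians subtracted, and 0 passed the test. Among 20 other ER folding enzymes 13 lay below 0 and 7 above (8 below with medians subtracted), with Calu, a calcium-binding ER protein, at 59.8 ± 4.94 FPKM in libraries labelled knockout and 64.1 ± 7.89 FPKM in those labelled wild type (SD, n = 3 each). The log2 difference was -0.10 (SE 0.11) for Calu and 0.04 (SE 0.08) for Sdf2, the next in level. For 14 genes of the translocon and signal peptidase, the entry gate of the ER, the split was 11 below and 3 above (5 below with medians subtracted), and for 20 other degradation genes 13 and 7. Wfs1, an ER membrane protein among 12 other stress sensors and kinases (7 below, 5 above), was at 35.9, 28.0 and 27.6 FPKM in libraries labelled knockout, against 34.6, 45.5 and 42.1 FPKM in those labelled wild type. Wild-type library 1 lay inside the knockout range, and the limma log2 difference was -0.41 (SE 0.14, adjusted p = 0.988). Tmbim6, the most abundant gene of that list, lay at -0.01 (SE 0.09).

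Among 27 other ATF4-linked genes tested, 14 lay below 0 and 13 above (median -0.01). Gpt2, a mitochondrial alanine transaminase, was at 147.9, 144.6 and 121.4 FPKM in libraries labelled knockout, against 145.2, 75.7 and 104.7 FPKM in those labelled wild type. As for Chac1, wild-type libraries 2 and 3 were the lowest, and the limma log2 difference was 0.39 (SE 0.21, adjusted p = 0.988). Eprs, the next in level, lay at 0.01 (SE 0.10). Fgf21, the secreted factor that muscle releases when ATF4 is active, was listed at 0 in all 6 libraries; it is named after its values were seen.

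Chaperones of other compartments were counted alongside. In the cytosolic HSP70 and HSP90 system 17 of 22 genes lay below 0 (median -0.08), against 56.7% of all genes, and 0 passed the test. With library medians subtracted 15 lay below 0, against 43.2% of all genes. Unadjusted limma p-values under 0.05 were reached by 4 on the lower side, against 3.31% of all genes. All libraries labelled knockout lay below all labelled wild type in 5, against 5.64%. Hspa8, the constitutive cytosolic HSP70, was at 632.9, 638.8 and 560.8 FPKM in libraries labelled knockout, against 765.3, 615.1 and 700.3 FPKM in those labelled wild type. Wild-type library 2 lay inside the knockout range, and the log2 difference was -0.18 (SE 0.10). Hsp90ab1, the most abundant gene of this set, lay at -0.05 (SE 0.08). Of 8 mitochondrial chaperones and proteases 1 lay below 0 and 7 above (median 0.04; 0 below with medians subtracted), with Hspa9, the mitochondrial HSP70, at 376 ± 11 FPKM in libraries labelled knockout and 365 ± 19.0 FPKM in those labelled wild type (SD, n = 3 each). The difference between the ER members and these sets was not tested.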

How the data were processed

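RNA-seq values were deposited by the authors as FPKM per gene, 1 table for each of 6 libraries. The submitters' processing notes name mm10, TopHat2 2.1.1 and Cufflinks 2.2.1. The step each tool ran, the annotation and the use of strand were not given in the sources used here. Groups and replicate numbers came from sample titles. The members and gene lists were chosen with earlier results of these data known.

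FPKM steps gave whole fragments for all 23559 detected genes (100.0%, tolerance 0.002 of a fragment), and from these the library totals. limma 3.58.1 in R 4.3.3 was fitted to log2(FPKM + 1), a scale that understates changes of low genes, with a mean-variance trend over the 11383 genes whose mean reached 1 FPKM. P-values were Benjamini-Hochberg adjusted over all of them (threshold 0.05), two-sided. Each difference is knockout label minus wild-type label. limma voom on the recovered fragments called 0 genes. Other alternatives were pseudocounts of 0.1 and 0.01, no filter, a minimum mean of 5 FPKM, median subtraction, quantile normalization, the replicate block, library weights, no trend, and fits with 1 library left out.

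Per-library values are given for the 3 members with the highest mean in each role group, members with non-overlapping groups or an unadjusted p under 0.05, the sensors, Atf4 and Ddit3. Ppib was added after its values were seen. From the other lists up to 2 members with the highest mean are named. Same-numbered libraries did not deviate together (correlations of 0.0236, -0.0408 and 0.0232), so the main fit did not pair them. With 3 libraries per label this cannot exclude a pairing by number. Over pairs of libraries, chi-square divided by its degrees of freedom ran from 7.04 (wild-type libraries 2 and 3) to 23.8 (knockout library 3 and wild-type library 2). All pairs thus differed by more than sampling noise. Exon overlaps and transcript lengths came from a GENCODE mm10 annotation, promoters from RefSeq, and 40452 of 41025 genes had a symbol. Exons of 13 members overlap a gene on the other strand (Hsp90b1, Pdia3, Pdia6, Ppib, Dnajb9, Manf, Syvn1, Derl2, Eif2ak3, Atf5, Ddit3, Ppp1r15a and Ppp1r15b), and 7 share more than 5% of their 50-base words with other genes (Ppib, Ppp1r15b, Hsp90b1, Manf, Eif2ak3, Derl1 and Dnajb9). Software was Python 3.11.15 with scipy 1.17.1, numpy 2.4.6, pandas 2.3.3 and matplotlib 3.10.9. The fit was also run on simulated data. Their noise was independent between genes, so this cannot show how the fit handles shifts that genes of a library share.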

Additional observations from a re-analysis of the deposited data

How the results depend on the processing

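Of 36 members, 24 kept their sign under all 16 alternatives run and 12 did not; 0 members were called under any. Genes called over all tested genes ranged from 0 to 3 when 1 library was left out (1 without knockout library 3, 1 without wild-type library 1, 3 without wild-type library 3). The replicate block, on numbers along which libraries did not deviate together, called 0 genes. It left 472 at an unadjusted limma p under 0.05, against 523 without it. Members at an unadjusted p under 0.05 numbered 3, but 12 with library weights, 1 with library medians subtracted or quantile normalization, and 0 to 9 with 1 library left out (9 without wild-type library 1, 1 without wild-type library 2, 0 without knockout library 2 or wild-type library 3). The same count over all genes was 987 without a filter, 339 at a mean of at least 5 FPKM, 1413 with library weights and 342 to 1356 with 1 library left out. The median of ER-associated degradation was -0.063 with medians subtracted, -0.068 with quantile normalization, and -0.146 to -0.090 with 1 library left out; that of the sensors was 0.002 without knockout library 2. Signs turned for Hyou1 and Eif2ak3 with a pseudocount of 0.1 (0.000645 and 0.00594) and of 0.01 (0.000746 and 0.00749); for Hsp90b1 (0.0215), P4hb (0.00526), Hyou1 (0.0467), Atf6 (0.0159), Eif2ak3 (0.0446) and Atf4 (0.00879) with medians subtracted; for Hyou1 (0.0378), Atf6 (0.00599) and Eif2ak3 (0.0577) with quantile normalization; for Atf4 (0.00786) with library weights; and for Hyou1 (0.0095) with voom. With 1 library left out, log2 differences ran from -0.0885 to 0.0416 for Hsp90b1, -0.107 to 0.0113 for P4hb, -0.116 to 0.0652 for Hyou1, -0.207 to 0.0432 for Dnajb9, -0.0761 to 0.122 for Herpud1, -0.186 to 0.0269 for Derl2, -0.0872 to 0.00151 for Atf6, -0.111 to 0.0348 for Ern1, -0.202 to 0.156 for Eif2ak3, -0.0692 to 0.0156 for Atf4, -0.154 to 0.278 for Trib3 and -0.0895 to 0.143 for Ppp1r15b. The cause was not tested. Under a mean of at least 5 FPKM, 7 members had no value. Counting error weighs on values such as those of Trib3, Asns and Sdf2l1, which rest on 7 to 36 fragments.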
